A study of Mus musculus with 2 samples.

Results

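Cd34-high mesenchymal cells were collagen-making cells of a healing skull defect that carried Cd34 RNA. They were picked by measured UMIs (unique molecular identifiers, 1 per captured RNA molecule). Among barcodes of 500 to 140000 UMIs and 200 to 9500 genes with at most 15% of UMIs from mitochondrial genes, a cell was a member if Col1a1, Col1a2 and Col3a1 together made at least 1% of its UMIs, Cd34 at least 0.02%, S100a8 with S100a9 under 1%, Bglap with Bglap2 under 0.5% and Eln under 0.05%. It also needed at least 2 UMIs of Pdgfra with Prrx1, at most 5 of Ptprc with Csf1r, and under 10 of Mki67, Top2a and Ube2c together. These limits gave 1066 members among the 17129 barcodes within the limits on quality and the 18040 deposited.

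The cells came from 2 single-cell libraries of C57BL/6 mice by the labels, which the study's methods give as C57BL/6J males of 2 months, 5 pooled per library. A 1.8 mm full-thickness hole had been drilled in the frontal bone, and at day 7 the bone around it was digested with collagenases. The labels give this bone an edge of about 3 mm, and the study's methods give a circle 3 mm across. The GA mice received gambogic amide, a small molecule, by intraperitoneal injection, and the control mice received the vehicle, 100 µL of 10% DMSO in either case, from 24 h before injury and daily after it. The labels give the dose as 1.2 mg/kg for 1 week and the study's methods as 2 mg/kg for 4 weeks, so the dose behind these cells is uncertain. With 1 library per condition there was no replicate: no difference between GA and control could be tested, animals could not be told apart, and every 95% interval below covers counting error only.

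The GA library held 444 members among 9036 kept barcodes and the control library 622 among 8093. Members carried a median of 52910 UMIs and 6772.5 genes in GA and 52908 UMIs and 6615 genes in control, so their median depth was alike. The lower quartile was 38710.5 UMIs in GA and 42352.2 in control. The matrices summed to 182949385 UMIs in GA and 214993030 in control, and the members alone to 24361741 and 35611443. The libraries shared 23 barcodes, none of them members. Scrublet, a caller of droplets with more than 1 cell, made 0 automatic calls in GA and 7 in control, so the highest scores were marked instead, which took in 47 GA members (10.6%) and 24 control members (3.86%). These cells were kept.

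CD34 is a sialomucin of the cell surface, known from blood stem cells and vessel lining and also carried by stromal fibroblasts around vessels and in connective tissue. PDGFRA is the receptor by which many mesenchymal cells sense platelet-derived growth factor, and THY1 is a surface glycoprotein of fibroblasts and several other cells. Fibroblasts of this kind secrete fibrillar collagens and matrix proteins, take part in scar and callus tissue after injury, and answer cytokines such as interferons, whose receptors act through factors that include STAT2 and IRF9 to switch on antiviral genes.

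Levels are given in counts per 1000000 (CPM): the UMIs of a gene, summed over the cells in question, per 1000000 of all UMIs of these cells in that library. Cd34, which chose the cells, stood at 678 CPM in GA members and 540 in control members. In Cd34-low cells, which pass every limit but hold Cd34 under 0.02%, it stood at 59.2 and 41.8, and in macrophages marked by C1q genes at 3.46 and 3.24. The gap in Cd34 between members and Cd34-low cells was set by the rule. Thy1, which the rule did not use, was at 296 and 200 in members, 108 and 90.1 in Cd34-low cells and 1.17 and 1.94 in macrophages. Pdgfra was at 144 and 149 in members and at 123 and 131 in Cd34-low cells, so it stood alike in both kinds. The rule counts Pdgfra together with Prrx1, so its presence in members is partly fixed. After each cell was thinned to 10000 UMIs, which left out 9 GA and 5 control members, Thy1 was found in 76.6% and 67.1% of members. The same shares in macrophages, which should lack the gene, were 1.21% and 1.81%, at a median of 21099 and 23269 UMIs per macrophage before thinning. Thinned Pdgfra was found in 73.8% and 70.3% of members and in 0.806% and 0.756% of macrophages.

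**Figure D1:**
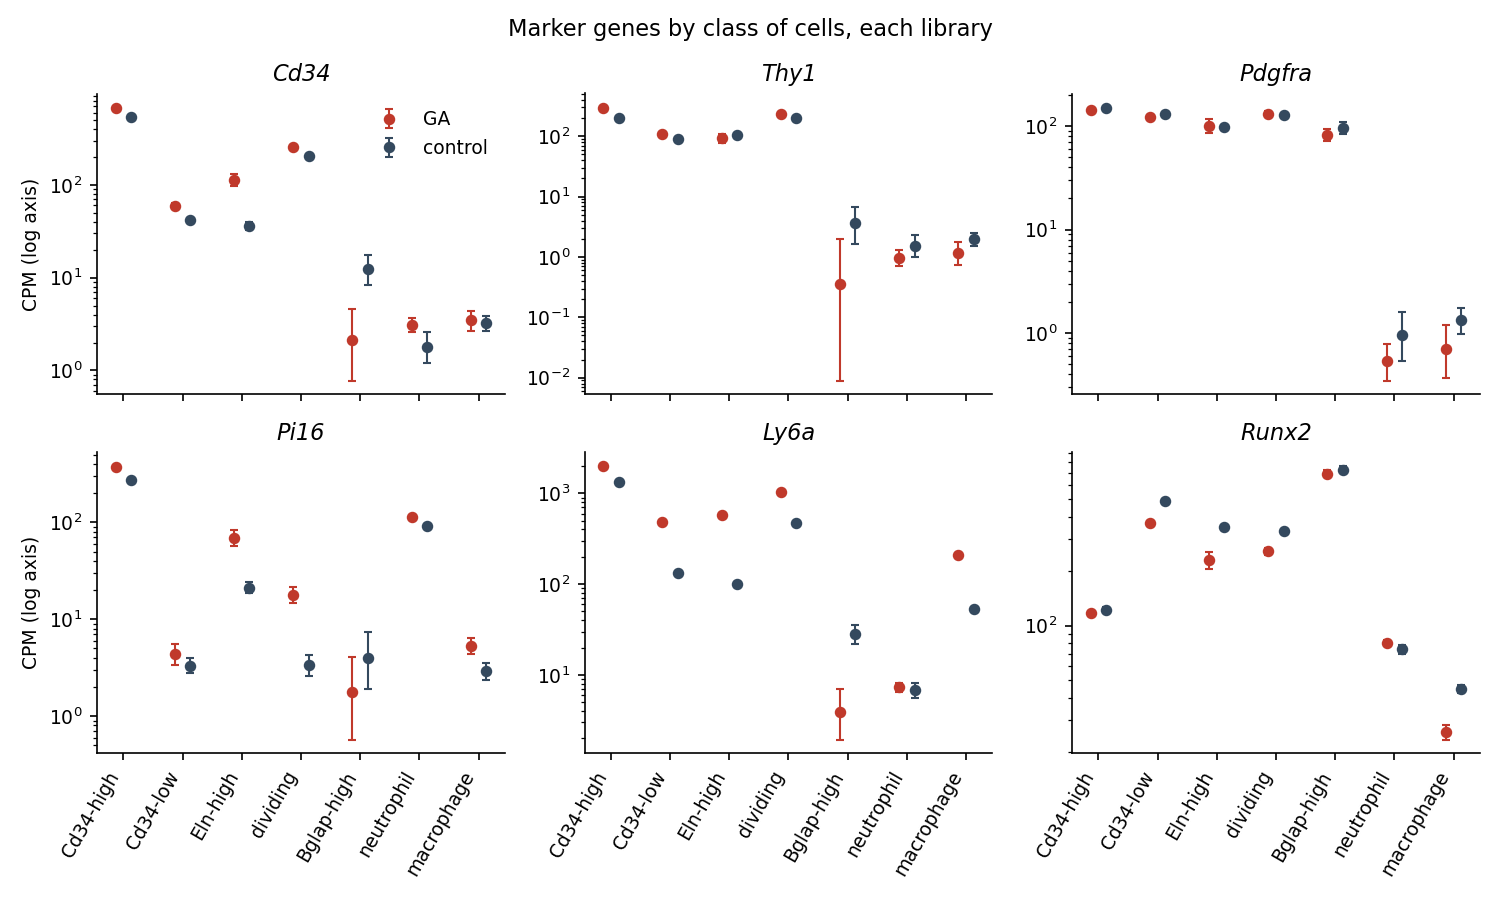
Levels of marker genes in CPM (log axis) in Cd34-high cells, other mesenchymal cells, neutrophils and macrophages of the GA and control libraries, 1 point per library and kind of cell with its 95% interval of counting error. Pi16 stands at 374 in GA and 275 in control in Cd34-high and at 4.36 and 3.32 in Cd34-low cells, while Pdgfra stands at 144 and 149 in the former and at 123 and 131 in the latter.

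Markers of skull stem cells were mixed, so the cells are called here by their rule and not by the word stem-like of their working name. Of the 20 skull stem and progenitor genes listed, 15 had at least 50 UMIs, and the list summed to 2983 CPM in GA members and 4034 in control members, against 3768 and 4166 in Cd34-low cells. Most of it came from Postn, periostin of periosteum and healing tissue, at 1636 and 2484, and from Ctsk, a protease that marks periosteal stem cells, at 466 and 499.98. Cd34 and Thy1, which the study used as markers, were high as given above. Gli1, a hedgehog target and marker of suture stem cells, had 17 UMIs in all GA members (0.698 CPM) and 10 in all control members (0.281). Lepr, which marks marrow stroma, had 10 and 14 UMIs, and Axin2, a Wnt target, stood at 3.04 and 1.54 CPM. Sp7, the osteoblast transcription factor, had 4 UMIs in each library, and Bglap, which encodes osteocalcin, stood at 4.39 and 3.85 under a rule that limits it.

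Genes higher in members than in Cd34-low cells took in most of a list described for adventitial fibroblasts, the fibroblasts of vessel sheaths and fascia. Since Cd34 and the genes that move with it define the contrast, what follows is a description without a test. Of 9997 genes with enough UMIs in both libraries, 288 (2.88%) had a log2 ratio of Cd34-high over Cd34-low cells of 1 or more in both, and 393 (3.93%) of -1 or less. Of the 20 adventitial genes listed, 17 were among the 288. Pi16, a peptidase inhibitor, had log2 ratios of 6.42 in GA and 6.37 in control. Efhd1, a mitochondrial calcium-binding protein, had 6.38 and 5.93, and Clec3b, which encodes tetranectin, had 5.00 and 4.95. Cd55, which protects cells from complement, had 4.34 and 4.49, and Tnxb, a matrix glycoprotein, 4.09 and 4.28. Dpp4, a surface peptidase, had 3.75 and 4.08, above Cd34 itself at 3.52 and 3.69. The ratios of these genes were alike in both libraries. Pi16 was also found in neutrophils, at 115 CPM in GA and 91.4 in control. Xirp2, a muscle gene, had the highest ratios of all, but 5 cells held 93.0% of its UMIs in GA and 99.2% in control.

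Lower in members than in Cd34-low cells, by -1 or less in both libraries, were all 10 osteoblast genes with enough UMIs, 8 of 9 tendon genes and all 3 cartilage genes. These counts stand beside 3.93% of all genes, and the Cd34 limit of the rule defines this contrast as well. Ibsp, bone sialoprotein, had log2 ratios of -10.35 in GA and -8.96 in control, and Alpl, the alkaline phosphatase of mineralising cells, -7.67 and -7.75. Acan, the cartilage proteoglycan, had -7.67 and -6.11, and Fmod, fibromodulin of tendon, -6.04 and -5.91. Runx2, the osteoblast master regulator, was lower in members but far from absent, at 117 CPM in GA and 123 in control against 367 and 491 in Cd34-low cells.

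The Cd34 limit lay within a range that held cells on either side. Just inside it, with Cd34 at 0.02% to 0.025% of UMIs, 48 GA and 59 control cells held Pi16 at 10.0 and 15.2 CPM and Thy1 at 186 and 149. Just outside it, with Cd34 at 0.015% to 0.02%, 38 and 57 cells held Pi16 at 10.3 and 16.1 and Thy1 at 156 and 152. Ly6a stood at 1277 and 764 just inside and at 1104 and 433 just outside. Cells on the 2 sides of the limit were thus alike in Pi16 while Ly6a was higher inside, most of all in control.

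Members differed among themselves in Pi16, which was chosen to describe their variation. After thinning, 168 of 435 GA members (38.6%) and 241 of 617 control members (39.1%) had a Pi16 UMI, against 4.84% and 3.40% of macrophages. Across members of a library, Clec3b followed Pi16 most closely, with a Spearman correlation of 0.78 in GA and 0.77 in control. So did 3 complement genes: C3, the central component, had 0.69 and 0.71, C4b 0.68 and 0.71, and Serping1, the C1 inhibitor, 0.63 and 0.66. Mean thinned C3 was 15.04 UMIs in Pi16-positive and 1.67 in Pi16-negative GA members, and 12.7 and 1.89 in control. Other genes ran the other way. Lgals1, galectin 1, had correlations of -0.68 and -0.62, and Tnc, tenascin C of wound matrix, -0.56 and -0.57. Mean thinned Tnc was 0.369 UMIs in Pi16-positive and 9.01 in Pi16-negative GA members, and 2.37 and 14.3 in control. Tpm1, a tropomyosin, and Lrrc15, a marker of activated fibroblasts, had correlations near -0.5 as well, at -0.50 and -0.52 for Tpm1 and -0.56 and -0.50 for Lrrc15. These correlations are over cells of 1 library each, which share that library's depth and animals, and describe the same axis in GA and control.

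Cd34 itself had a correlation with Pi16 of 0.62 in GA and 0.45 in control. Cd34 and Ly6a, the Sca-1 surface antigen, had 0.45 and 0.42. The correlations of Cd34 with Thy1, 0.12 and -0.02, and with Pdgfra, 0.13 and 0.03, were weak. All of these are over members alone, in which the rule holds Cd34 at 0.02% of UMIs or more. Among the most unevenly spread genes, by variance over mean after thinning, were the acute-phase gene Saa3 and the neutrophil chemokine Cxcl5. Saa3 had a median of 0 and a maximum of 101 thinned UMIs in GA and 143 in control. Cxcl5 had a 90th percentile of 9 UMIs in GA members and 31 in control members, and a median of 0 and 2. A few cells thus carried most of the Saa3, whereas Cxcl5 was spread over more of the control members.

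The share of these cells in GA and control depended on the population they were counted in. Of all kept barcodes, they made 4.91% (Clopper-Pearson interval 4.48 to 5.38) in GA and 7.69% (7.11 to 8.29) in control, a ratio of 0.639 (0.568 to 0.719). Of the mesenchymal cells, which pass the same limits without those on Cd34, Eln, Bglap and the cell cycle, they made 47.2% (44.0 to 50.5) in GA and 32.5% (30.4 to 34.7) in control, a ratio of 1.45 (1.32 to 1.59). The share was thus lower in GA among all cells and higher among mesenchymal cells. Beside it, mesenchymal cells as a whole were 10.4% of kept barcodes in GA and 23.6% in control, while barcodes with a high share of S100a8 and S100a9 numbered 4275 and 1670. Among mesenchymal cells, the ratio of the Cd34-low share was 0.821 (0.737 to 0.915) that of the Eln-high share 0.350 (0.256 to 0.479) and that of the dividing share 0.731 (0.576 to 0.928). The share of Bglap-high cells, those rich in osteocalcin RNA, had a ratio of 2.40 (1.69 to 3.39), above that of the members. With 1 dissection pool per condition, a difference in cell recovery and one in the tissue cannot be told apart.

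Between conditions, most genes of members stood at similar levels. Of 10626 genes with at least 200 UMIs over both libraries, 113 (1.06%) had a log2 ratio of GA over control of 1 or more and 97 (0.913%) of -1 or less, and from the 10th to the 90th percentile the ratios ran from -0.28 to 0.36. These counts are sizes, not calls of significance. Of the 113 genes, 22 belonged to the list of type I interferon response genes, 7 to the list of interferon gamma and MHC class I genes, and 9 to the neutrophil list. Ifitm6, a gene of myeloid cells outside these lists, had a ratio of 2.03 (1.62 to 2.46), which was 1.12 with cells thinned before summing. In 8 of the 113, and in 13 of the 97, 5 cells held at least 50% of the UMIs in the higher library.

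**Figure D2:**
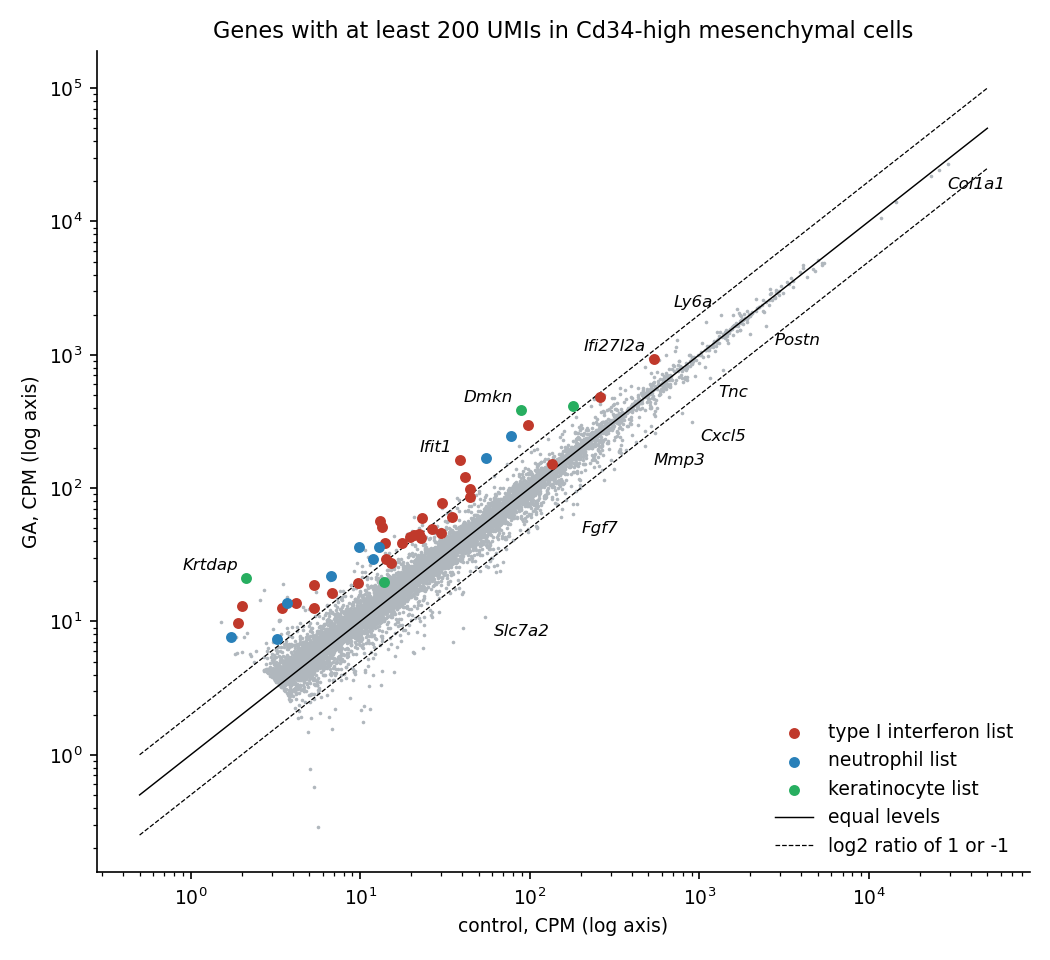
Level of each gene with at least 200 UMIs in Cd34-high cells in the control library (horizontal) and the GA library (vertical), in CPM on log axes, with the type I interferon, neutrophil and keratinocyte lists in colour. Nearly all genes lie between the dashed lines of a log2 ratio of 1 and -1, and the coloured points lie above the line of equal levels.

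Among genes with under 50% of their UMIs in 5 cells, the highest ratios were those of epithelial-type secreted proteins, interferon genes and neutrophil genes. Krtdap, a small secreted protein known from keratinocytes, stood at 21.1 CPM in GA members and 2.13 in control members, a log2 ratio of 3.31 (2.96 to 3.67). Dmkn, dermokine, stood at 382 and 88.7, a ratio of 2.11 (2.05 to 2.17), and was found in 69.1% of GA and 34.7% of control members before thinning. Its neighbour in the genome, Sbsn, stood at 411 and 179, a ratio of 1.20 (1.15 to 1.24). Keratinocyte list genes stood in GA members at 293% to 661% of their level in the whole library. Of the keratins listed, Krt10, a keratin of upper skin layers, stood at 19.9 and 13.8, a ratio of 0.52 (0.34 to 0.71), and Krt6a, a keratin of wounded skin, had 31 UMIs in GA and 0 in control. Krt5 and Krt1 had 0 UMIs in both libraries, and Krt14 had 2 in GA and 1 in control. All 4 keratinocyte list genes with at least 50 UMIs were higher in GA, beside 59.8% of all genes, with a median of 1.65. The list summed to 836 and 284 CPM. In Cd34-low cells 3 of 3 genes with at least 50 UMIs were higher, with a median of 1.35, beside 50.05% of all genes there. It was 3 of 3 in dividing cells, with a median of 1.31, and 2 of 3 in Eln-high cells, with a median of 1.48. The rise was thus not particular to members. Ifitm1, an interferon-induced transmembrane protein, stood at 17.2 and 2.70, a ratio of 2.67 (2.35 to 3.01), but in members it was at only 5.16% of its level in the whole library in GA and 3.70% in control. Kcnc2, a potassium channel gene, stood at 15.2 and 3.71, a ratio of 2.03 (1.74 to 2.33).

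Type I interferon response genes were higher in GA members as a group. Of the 37 genes listed, 32 had at least 50 UMIs, all 32 were higher in GA and 23 had a log2 ratio of 1 or more. Among all 13217 genes with at least 50 UMIs, 59.8% were higher in GA, 2.1% had a ratio of 1 or more and 1.69% of -1 or less. The median ratio of the list was 1.20, beside 0.05 for all genes, and its summed level was 3161 CPM in GA and 1558 in control. The members and the list were chosen with earlier results of these data known.

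Antiviral effectors were among the genes of the list with the highest ratios. Ifit1, which binds foreign RNA caps, stood at 162 CPM in GA members and 38.9 in control members, a log2 ratio of 2.06 (1.97 to 2.15). Isg15, a ubiquitin-like modifier, stood at 299 and 97.1, a ratio of 1.62 (1.56 to 1.68), and was found in 84.7% and 64.3% of members. Ifit3 and Ifit3b, near-identical copies between which reads cannot be split with certainty, stood at 51.0 and 13.4 and at 13.1 and 2.02, ratios of 1.93 (1.78 to 2.09) and 2.70 (2.33 to 3.09). Cmpk2, a mitochondrial nucleotide kinase, had a ratio of 2.35 (1.95 to 2.76). In GA, 5 cells held 48.75% of the Ifit3b UMIs and 48.9% of the Cmpk2 UMIs. Without the highest Scrublet scores, which took in more GA than control members, the ratio was 1.56 for Ifit1 and 1.36 for Ifit3. It was 2.125 for Ifit3b and 1.61 for Cmpk2. Each of these ratios thus stayed above 1 but was smaller. Usp18, which removes ISG15, had a ratio of 1.48 (1.32 to 1.64). Rsad2, which encodes viperin, had a ratio of 2.13, but 5 cells held 61.2% of its UMIs in GA. Among the RNA sensors and antiviral synthetases, Oas2 had 1.72, Oasl2 1.36, Ifih1 0.88 and Ddx58 0.63.

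The regulators named here were higher in GA as well. Irf7, the factor that amplifies the response, stood at 121 CPM in GA and 41.6 in control, a ratio of 1.54 (1.45 to 1.63). Of the factors that interferon receptors activate, Stat2 had 1.10 (0.96 to 1.23) and Irf9 0.85 (0.68 to 1.01). The pair of most abundant genes of the list had ratios below 1: Ifi27l2a, at 932 and 537, had 0.79 (0.77 to 0.82), and Bst2, tetherin, at 480 and 261, had 0.88 (0.84 to 0.92). The lowest ratio in the list was that of Slfn5, at 151 and 135, or 0.16 (0.09 to 0.22). The receptors stood apart from their targets: Ifnar1 had -0.14 (-0.27 to -0.01), Ifnar2 -0.17 (-0.24 to -0.11), Ifngr1 0.27 (0.15 to 0.39) and Ifngr2 0.05 (-0.05 to 0.15).

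**Figure D3:**
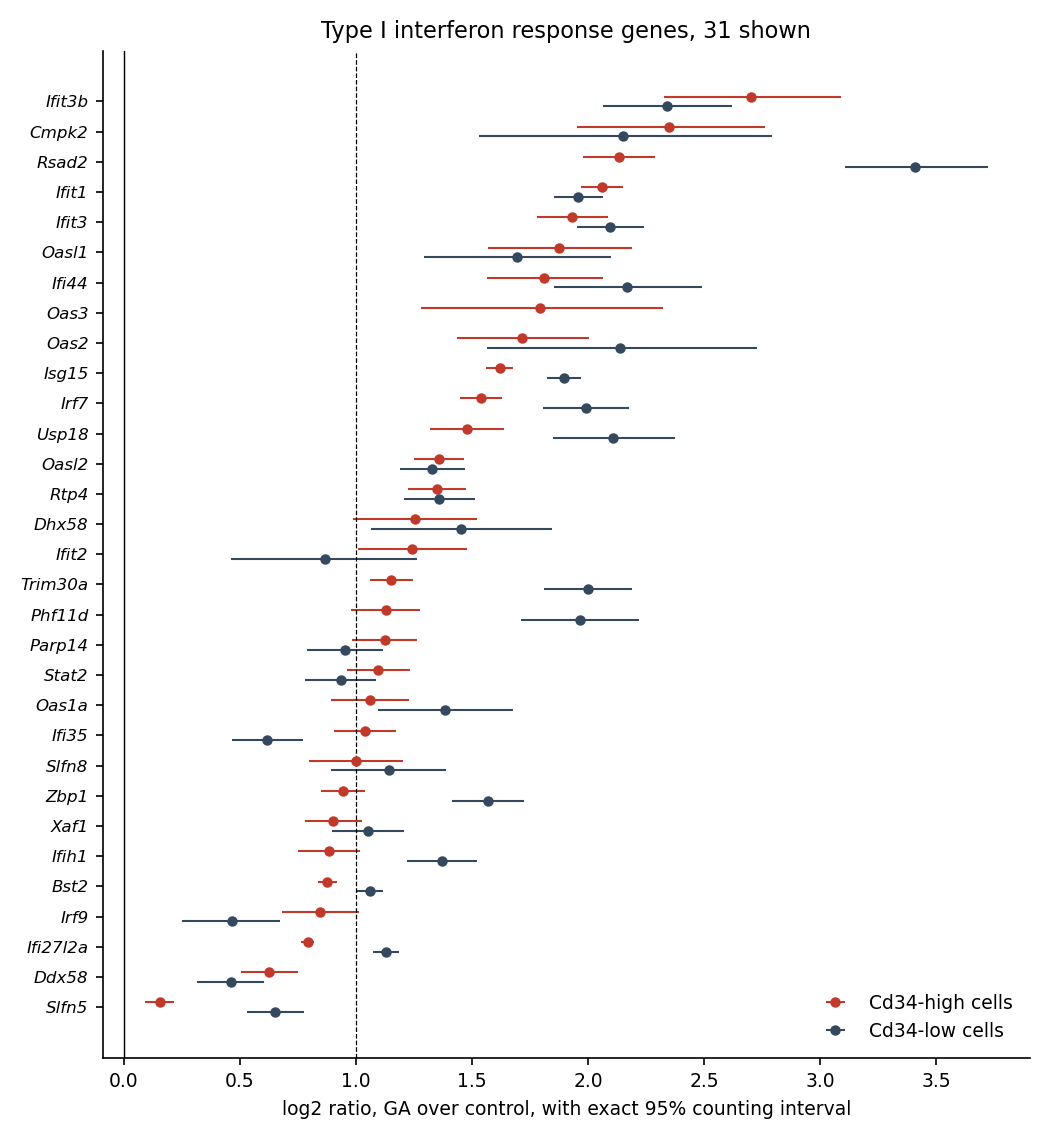
Log2 ratio of GA over control for 31 type I interferon response genes with at least 50 UMIs in Cd34-high cells, with 95% intervals of counting error, beside the same ratio in Cd34-low cells. All genes shown lie above 0 in Cd34-high cells, from 0.16 for Slfn5 to 2.70 for Ifit3b.

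Genes of interferon gamma signalling and antigen presentation were higher too. Of 20 with at least 50 UMIs, 19 were higher in GA, beside 59.8% of all genes. A ratio of 1 or more was found for 8, beside 2.1% of all genes, and the median was 0.84. B2m, the light chain of MHC class I, stood at 908 and 582 CPM, a ratio of 0.64 (0.61 to 0.67), and the heavy chain genes H2-D1 and H2-K1, which are alike in sequence, had 0.62 and 0.50. Nlrc5, which switches on MHC class I genes, had 1.33, but 0.50 with cells thinned before summing. Irgm1, an immunity GTPase, had 1.46 (1.31 to 1.61). Of the chemokines of this group, Cxcl9 stood at 32.3 and 14.1, a ratio of 1.20 (1.03 to 1.36), while Cxcl10 stood at 122 and 106, a ratio of 0.21 (0.14 to 0.28). Irf8, a factor of blood cells, was near the floor at 1.11 and 1.32.

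Per cell, the interferon genes were shifted across the population and not in a few cells alone. The listed genes together made a median of 0.254% of a cell's UMIs in GA members, from 0.0196% to 2.53%, and 0.138% in control members, from 0.00486% to 1.17%. The 10th percentile was 0.0986% in GA and 0.0344% in control, so the lower end was higher as well. Above the control median stood 366 of the 444 GA members (82.4%), and above the control 90th percentile of 0.307% stood 168 (37.8%, interval 33.3 to 42.5). The ranges of the cells overlapped, from the lowest GA to the highest control value. Among Pi16-positive members the medians were 0.282% in GA and 0.186% in control, and among Pi16-negative members 0.240% and 0.107%. Isg15 and Ifit1 moved together over cells, with correlations of 0.46 in GA and 0.34 in control, whereas Isg15 and Pi16 had -0.15 and -0.06.

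**Figure D4:**
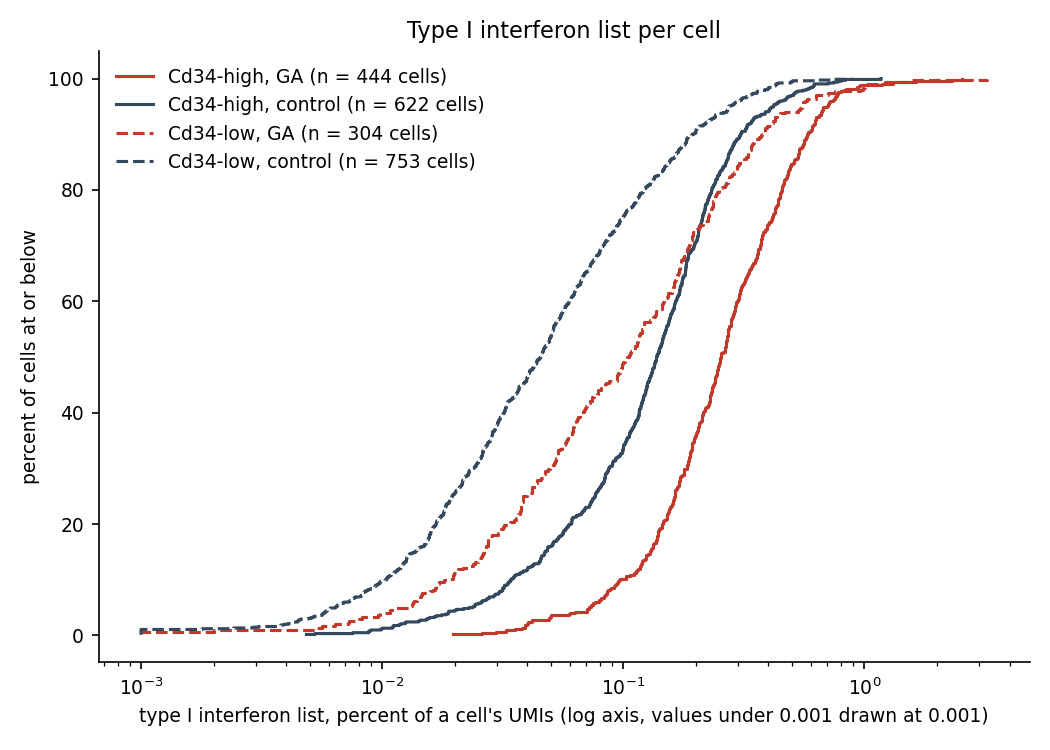
Share of each cell's UMIs from the type I interferon response list, in percent, for Cd34-high and Cd34-low cells of the GA and control libraries. The medians in Cd34-high cells are 0.254% in GA and 0.138% in control, and the 2 distributions overlap.

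Interferon genes were also higher in GA in Cd34-low and dividing mesenchymal cells. In Cd34-low cells all 31 genes with at least 50 UMIs were higher in GA, with a median of 1.38, where 50.05% of all genes were higher. In dividing mesenchymal cells all 31 were higher, with a median of 1.24, beside 48.5% of all genes. In Eln-high cells 17 of 29 were higher, with a median of 0.12, beside 40.4% of all genes and over only 43 GA cells. In Bglap-high cells the list made a median of 0.00594% of a cell's UMIs in GA and 0.00690% in control. Only 4 of its genes had at least 50 UMIs there, none of them higher in GA, and 1 control cell stood far from the rest at 0.738%, beside a 90th percentile of 0.0273%, so no ratio is given. These groups come from the same 2 libraries and are not independent. Summed levels of the list were higher in Cd34-high than in Cd34-low cells within each library, at 3161 against 1826 CPM in GA and 1558 against 736 in control. Of the interferon genes themselves, Ifnb1 had 13 UMIs in the whole GA library and 16 in the control library, none in members. Ifng had 146 and 131, of which 1 and 3 were in members, and Ifna2, Ifna4, Ifnl2 and Ifnl3 had 0.

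RNA of another cell type was higher in GA members as well. All 11 neutrophil list genes with at least 50 UMIs were higher in GA members, beside 59.8% of all genes, with a median ratio of 1.67. The list of 14 genes summed to 575 CPM in GA and 185 in control. S100a9, its most abundant gene and part of the rule, stood at 246 and 77.3, Wfdc21 at 7.68 and 1.74, a ratio of 2.14 (1.72 to 2.58), and Ly6g, the neutrophil surface marker, at 1.07 and 0.225. Neutrophil genes in members stood at 0.612% of their level in the whole GA library and 0.705% in the control library, and in Cd34-low cells their sum was much the same, 560 and 179. For interferon genes, the level in members had a median of 134% of the whole-library level in GA, from 15.3% to 268%, and 81.6% in control. Isg15 stood at 299 in GA members, 59.0 in GA neutrophils and 166 in GA macrophages, and Ifit1 at 162, 10.7 and 74.6. In GA both genes were higher in members than in either blood cell type. Over the whole library, Isg15 stood at 140 in GA and 81.3 in control, and Ifit1 at 60.5 and 26.7. The part of RNA from other cells in the ratios of members was not tested. Without the doublet-marked cells the median of the interferon list was 1.08 and with members limited to S100a8 and S100a9 under 0.1% it was 1.20.

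Of the other blood and vessel lists, macrophage genes summed to 100 CPM in GA members and 123 in control members, led by Lyz2. Of these genes, 4 of 11 were higher in GA, beside 59.8% of all genes. Lymphocyte genes summed to 12.7 and 11.1, with Cd3e at 0 UMIs and 1 UMI. Erythroid genes summed to 13.5 and 67.7, led by Hbb-bs, 79.6% of whose control UMIs lay in 5 cells. Endothelial genes summed to 46.6 and 39.3, most of it Tek at 36.8 and 21.0, or 497% and 321% of its level in the whole library, while Pecam1 stood at 4.64 and 6.49. Of the 6 endothelial genes with at least 50 UMIs 5 were lower in GA, with a median of -0.44 that turned to 0.29 with cells thinned before summing, and Tek was higher in GA. Early blood progenitor genes, which include the other cells known for Cd34, summed to 17.7 and 13.2, with Kit at 6 and 29 UMIs. Pericyte genes summed to 37.8 and 72.4, led by Kcnj8 at 25.7 and 56.8, or 544% and 433% of its level in the whole library, with Myh11 at 2 and 4 UMIs. All 4 pericyte and smooth muscle genes with at least 50 UMIs were lower in GA members, with a median of -0.73. Schwann cell genes summed to 7.47 and 5.19, with Sox10 at 1 UMI in each library. Myh11 and Sox10 were thus near 0, while Tek and Kcnj8 were not.

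Short stretches of promoter are shown for interferon genes because the genes of the list were higher together and a shared motif can be read in the sequence. The interferon-stimulated response element, bound by complexes with STAT2 and IRF9, was searched as GAAANNGAAA on both strands of the 300 bases from 250 before to 50 after each start in the RefSeq promoters of GRCm38.p6, with the starts of that table. It was found in 14 of the 24 type I interferon genes with a promoter in that table (58.3%) and in 7 of 16 interferon gamma and MHC class I genes (43.8%). Of all 27025 promoters, 3.99% held it, and of the 10172 whose genes had at least 50 UMIs in members, 3.75%. Both lists were drawn up as interferon response genes. The shares therefore describe the lists and do not bear on GA and control. The sequences run 5′ to 3′ along the gene's strand, capitals mark the match, whose letters are complementary where it lies on the other strand, and the log2 ratio in members stands in the sentences above. Some promoters held more than 1 match, overlapping or apart, and 1 is shown for each gene.
Isg15, chr4:156200866-156200905, minus strand, 72 bases before the start: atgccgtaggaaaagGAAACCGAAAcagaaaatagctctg
Ifit1, chr19:34640770-34640809, plus strand, 104 bases before the start: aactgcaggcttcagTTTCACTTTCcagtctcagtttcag
Ifit3, chr19:34583358-34583397, plus strand, 156 bases before the start: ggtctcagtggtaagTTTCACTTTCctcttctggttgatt
Ifit3b, chr19:34607754-34607793, plus strand, 188 bases before the start: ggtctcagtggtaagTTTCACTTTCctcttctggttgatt
Stat2, chr10:128270261-128270300, plus strand, 222 bases before the start: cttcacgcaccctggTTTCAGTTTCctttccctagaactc
Bst2, chr8:71537572-71537611, minus strand, 124 bases before the start: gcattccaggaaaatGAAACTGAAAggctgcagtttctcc
The windows of Ifit3 and Ifit3b are identical. Bst2, with a ratio of 0.88, holds the letters of the motif as Ifit1 does with a ratio of 2.06, so the letters did not sort these genes by size. A match is a string of letters, not a measured binding site.

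Genes of the adventitial list were higher in GA about as often as genes at large, but their median ratio was larger. Of 20, 12 were higher, beside 59.8% of all genes, and 2 had a log2 ratio of 1 or more, beside 2.1% of all genes. The median was 0.37, beside 0.05 for all genes, and the list summed to 10287 and 9178 CPM. In Cd34-low cells 17 of 19 were higher, with a median of 0.46, beside 50.05% of all genes there. It was 17 of 20 in dividing, 17 of 19 in Eln-high and 3 of 11 in Bglap-high cells. Efhd1 stood at 60.5 and 20.8, a ratio of 1.54 (1.41 to 1.67), Dpp4 at 194 and 106, a ratio of 0.87 (0.80 to 0.93), and Ly6a at 1981 and 1350, a ratio of 0.55 (0.53 to 0.57). Ly6a is also known as an interferon-inducible gene, and its ratio in Cd34-low cells was 1.86. Of its matrix genes, Col15a1 had 1.32 (1.05 to 1.58), while others ran slightly the other way, with Col14a1 at -0.22 (-0.25 to -0.19) and Fndc1 at -0.31 (-0.34 to -0.27). Transcription factors of mesenchymal cells were higher for 21 of 29, with a median of 0.28. Ebf1, an early B cell factor also active in stroma, stood at 1986 and 1586, a ratio of 0.32, and Ebf2, its paralogue, at 153 and 73.6, a ratio of 1.05 (0.98 to 1.13).

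Contractile and wound-matrix genes were lower in GA members. Of 20 myofibroblast genes 17 were lower and 3 higher, beside 59.8% of all genes higher. By a log2 ratio of -1 or less, 2 were lower, beside 1.69% of all genes, and the median was -0.24. Acta2, smooth muscle actin, stood at 137 CPM in GA and 267 in control, a ratio of -0.97 (-1.02 to -0.91). Tagln, transgelin, stood at 28.1 and 69.1, a ratio of -1.30 (-1.42 to -1.18), and Myl9, a myosin light chain, at 17.8 and 38.3, a ratio of -1.11 (-1.27 to -0.95). Periostin (Postn) and tenascin C (Tnc), matrix proteins of healing tissue, had -0.60 (-0.62 to -0.58) and -0.80 (-0.82 to -0.77). Ccn1, a matricellular target of mechanical signalling, was the highest of the 3 that were higher, at 298 and 178, a ratio of 0.75 (0.70 to 0.80). In Cd34-low cells the median of the list was -0.08. Pericyte and smooth muscle markers, which move the same way with a median of -0.73, are given above, and their part in these ratios was not tested. The collagens had a median of -0.10 with 6 of 22 higher, and Col1a1 was at -0.10 (-0.11 to -0.10). Col15a1, of vessel and muscle sheaths, stood apart at 13.2 and 5.31, a ratio of 1.32 (1.05 to 1.58), and Col4a5 of basement membranes had 0.60 (0.43 to 0.78).

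Chemokine, cytokine and acute phase genes were mixed in members, with more of them lower than higher in GA. Cxcl5, which draws neutrophils, stood at 312 CPM in GA members and 901 in control members, a ratio of -1.53 (-1.57 to -1.50), and was found in 50.7% and 74.3% of members. Il33, an alarmin held in stromal nuclei, stood at 220 and 426, a ratio of -0.95. Il6 had -0.47 (-0.52 to -0.42), Lif -1.36 (-1.62 to -1.10) and Csf3, the growth factor of neutrophils, -1.76 (-2.24 to -1.30) at 1.93 and 6.51. For Csf3, 5 cells held 53.4% of the control UMIs, and its ratio was -3.89 without the top 5 cells of each library and -0.46 with limits set on thinned cells. The most abundant chemokines differed less: Cxcl1 had -0.17 (-0.19 to -0.15) and Ccl2 -0.20 (-0.22 to -0.17). Kitl, the ligand of KIT, was higher in GA at 58.2 and 38.0, a ratio of 0.61 (0.50 to 0.72). Cxcl13 of the chemokine list was also higher at low levels, 3.41 and 0.955, a ratio of 1.84. Of the 22 chemokine and cytokine genes 9 were higher, beside 59.8% of all genes, with a median of -0.19. Of the 23 acute phase genes 4 were higher, with a median of -0.20. Among the acute phase genes, Ptx3, a soluble pattern receptor, had -0.83 (-0.88 to -0.78) and Il1r1, the interleukin 1 receptor, -0.89 (-0.94 to -0.84). Lrg1 was higher at low levels, 2.01 and 0.365, a ratio of 2.46, and in GA members stood at 1.75% of its whole-library level. In Cd34-low cells 15 of 22 chemokine and cytokine genes and 17 of 21 acute phase genes were higher, beside 50.05% of all genes there.

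Growth factors showed the same mixture. Of 14 FGF pathway genes 2 were higher in GA, beside 59.8% of all genes, with a median of -0.33. Fgf7, the stromal growth factor for epithelia, stood at 63.4 and 180, a ratio of -1.51 (-1.59 to -1.43), and the feedback inhibitor Spred1 had -0.51 (-0.59 to -0.43). Fgfr1, the main receptor in the list, had -0.23 (-0.26 to -0.20). Igf1 stood at 184 and 346, a ratio of -0.91 (-0.96 to -0.86), while the IGF-binding protein gene Igfbp5 stood at 1292 and 737, a ratio of 0.81 (0.79 to 0.83). Inhba, the activin A subunit, stood at 60.9 and 154, a ratio of -1.34 (-1.42 to -1.25). Bmp7 and Bmp4, bone morphogenetic proteins, were higher at low levels, 5.83 and 1.04 for Bmp7, a ratio of 2.49 (1.96 to 3.05), and 2.96 and 0.758 for Bmp4, a ratio of 1.96 (1.31 to 2.66). Of 29 BMP and TGF-beta genes 11 were higher, with a median of -0.10.

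The Wnt list had 14 of 24 genes higher, beside 59.8% of all genes, and a median of 0.03. Its ligand Wnt2 stood at 117 and 73.9, a ratio of 0.67 (0.59 to 0.75), Wnt10b at 8.83 and 3.06, a ratio of 1.53 (1.19 to 1.87), and the secreted inhibitor Sfrp1 at 25.9 and 61.8, a ratio of -1.25 (-1.38 to -1.12). The study reported raised hedgehog activity in GA, from pathway scores of its stem and progenitor clusters, Ptch1 RNA and staining for GLI1 and PTCH1. It also reported that deleting Smo in PDGFRA-expressing cells removed the gain in bone repair. In Cd34-high cells, picked by another rule and measured by RNA alone, the median of the hedgehog list lay near that of all genes. Of 11, 7 were higher with a median of 0.08. Disp1, which releases the ligands, stood at 41.0 and 27.3, a ratio of 0.59 (0.46 to 0.72). Gli1, with the 17 and 10 UMIs given above, had a ratio of 1.31 (0.10 to 2.60), and 5 cells held 64.7% of its UMIs in GA. The receptor Ptch1, a target of the pathway, stood at 4.06 and 4.89, a ratio of -0.27 (-0.64 to 0.10), the transducer Smo had -0.03 (-0.15 to 0.08), and Gli3, chiefly a repressor, -0.19 (-0.28 to -0.11). Of the ligands, Shh had 0 UMIs in both libraries, Ihh 12 in GA and 0 in control, and Dhh 4 and 2. Among neurotrophin genes 4 of 14 were higher, with a median of -0.18. Gdnf, a growth factor of nerve cells, had -0.77 (-0.93 to -0.61), and its receptor Gfra1 stood at 7.92 and 23.9, a ratio of -1.59 (-1.82 to -1.36), which was -2.66 without the top 5 cells of each library and -1.04 with limits set on thinned cells.

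Other groups differed by small amounts. Immediate early genes, the first to be transcribed after a stimulus, were higher for 15 of 22, beside 59.8% of all genes, with a median of 0.35. Fos stood at 1151 and 732 CPM, a ratio of 0.65 (0.63 to 0.68), and Egr1 at 814 and 479, a ratio of 0.77 (0.74 to 0.79), and the median of the list in Cd34-low cells was 0.37. Hypoxia and glycolysis genes were lower for 21 of 23, with a median of -0.18, led by the glucose transporter Slc2a1 at 35.1 and 57.8, a ratio of -0.72 (-0.84 to -0.61). Among proteases, Mmp3, stromelysin, stood at 206 and 478, a ratio of -1.21 (-1.26 to -1.17), and Mmp13, the bone collagenase, at 8.13 and 19.0, a ratio of -1.23, with 55.6% of its control UMIs in 5 cells. The inhibitor Timp3 stood at 186 and 102, a ratio of 0.88 (0.81 to 0.94). The complement list had a median of -0.02, with C3 at 484 and 474, a ratio of 0.03 (-0.00 to 0.06).

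**Figure D5:**
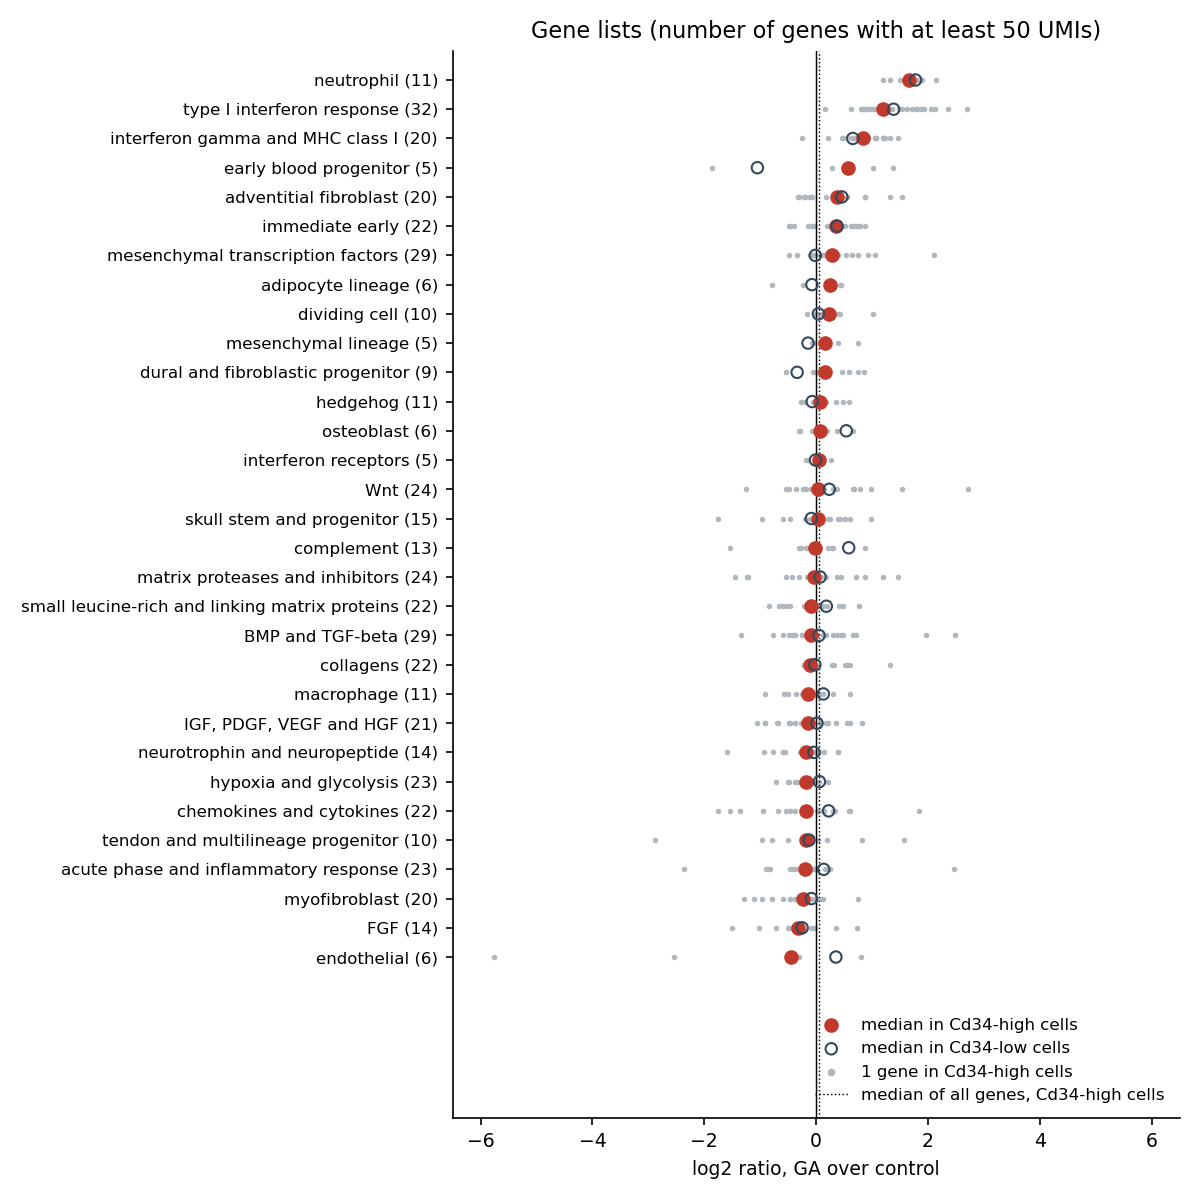
Median log2 ratio of GA over control of each gene list with at least 5 genes of 50 or more UMIs, in Cd34-high cells (filled) and Cd34-low cells (open), with single genes as grey points. The neutrophil (1.67), type I interferon (1.20) and interferon gamma (0.84) lists lie highest, and most other medians lie within 0.4 of 0.

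Among genes with under 50% of their UMIs in 5 cells, those with the lowest ratios came from several functions. Slc7a2, a transporter of arginine and lysine, stood at 10.8 CPM in GA and 54.5 in control, a ratio of -2.34 (-2.53 to -2.16). Mest, an imprinted gene of growing mesenchyme, stood at 8.91 and 40.2, a ratio of -2.17 (-2.38 to -1.97), and Tnfsf11, which encodes RANKL, the osteoclast differentiation factor, at 2.34 and 10.5, a ratio of -2.17 (-2.59 to -1.76). Areg, amphiregulin, had -2.00 (-2.35 to -1.65), and Itga2, a collagen-binding integrin, -1.88 (-2.13 to -1.63). For Tnfsf11, 5 cells held 49.5% of the control UMIs, and its ratio ran from -2.74 to -1.91 over 13 alternatives. Actg2, smooth muscle gamma actin, at 5.79 and 20.8, a ratio of -1.85 (-2.12 to -1.58), ran with the contractile genes above. Dbx2, a homeobox gene, had -1.92 (-2.24 to -1.62), and the uncharacterised transcripts C430002N11Rik and 2600014E21Rik had -1.79 and -1.78.

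The remaining lists, of neighbouring lineages and other functions, had medians of either sign. The counts below stand beside 59.8% of all genes higher in GA. Of the mesenchymal lineage genes 3 of 5 were higher in GA, with a median of 0.16. Of the skull stem and progenitor genes 8 of 15 were higher, with a median of 0.03. Of the osteoblast genes 3 of 6 were higher, with a median of 0.06. Tendon genes were higher for 4 of 10, with a median of -0.19, dural genes for 6 of 9, with a median of 0.16, and adipocyte lineage genes for 4 of 6, with a median of 0.24. Of the cartilage genes only Comp and Sox9 had enough UMIs, with a median of 2.06, and 88.6% of the Comp UMIs in GA lay in 5 cells. Among the cell cycle genes, 3 of which the rule limits, 9 of 10 were higher, with a median of 0.22, which turned to -0.40 with limits set on thinned cells. Matrix proteins outside the collagens were higher for 7 of 22, with a median of -0.09, among them Ogn, osteoglycin, at 290 and 522, a ratio of -0.85 (-0.89 to -0.81), and Prelp, which anchors basement membranes, at 269 and 159, a ratio of 0.76 (0.71 to 0.81). Growth factors of the IGF, PDGF, VEGF and HGF families were higher for 8 of 21, with a median of -0.14, and matrix proteases and their inhibitors for 10 of 24, with a median of -0.03.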

How the data were processed

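Single-cell RNA-seq of calvarial defect cells was analysed in 1 GA and 1 control library. The authors deposited raw counts (UMIs per gene and barcode) as filtered matrices, without normalization. The file headers name Cell Ranger 7.0.1, while the study's methods name another release, so the version used is uncertain. The labels name the mm10 build, the mouse reference, and the methods name 2 different reagent kits. Barcodes were filtered by the study's limits and members taken by the rule given above. UMIs were summed over members per library and divided by their total. Log2 ratios of GA over control have exact conditional binomial 95% intervals, and ratios of shares log-normal ones. No test was made, since each condition is 1 library. The study's pseudobulk test was not repeated for the same reason.

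Doublets were scored with the Scrublet of scanpy 1.11.5, and top scores at 0.8% per 1000 barcodes were marked. Spread and correlations used cells thinned to 10000 UMIs. Named were the markers, the 10 highest and 10 lowest ratios among genes with at least 200 UMIs whose top 5 cells held under 50%, up to 4 genes per list, and the leading genes of the Cd34-low and Pi16 contrasts. Any other gene was named after its values were seen. The members and all 38 lists were chosen with earlier results of these data known. Of the listed symbols, 6 were not matched and are not analysed here. A few genes that the naming rule selects are not reported here. Alternatives changed the limits on cells, the minimum UMIs per gene, the weighting of cells, the totals and the treatment of the top 5 cells. Python 3.11.15, NumPy 2.4.6, SciPy 1.17.1 and pandas 2.3.3 were used, and the steps were tested on simulated data.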

Additional observations from a re-analysis of the deposited data

Results flagged for a closer look

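For 10 of the named genes, the log2 ratio of GA over control had opposite signs in Cd34-high and in Cd34-low cells, with intervals that do not reach 0 in either and a size of at least 1 in 1 of them. With 1 library per condition the difference between the 2 kinds of cell was not tested. Ifitm1 had 2.67 in Cd34-high and -0.67 in Cd34-low cells, Pcolce2, a collagen processing enhancer, 1.46 and -0.25, Mpo of granule-forming blood progenitors 1.37 and -0.82, and Ccnb1 of dividing cells 1.02 and -0.96. In Cd34-high cells the value of Mpo turned to as low as -0.84 and that of Ccnb1 to -0.013 under other settings. The other direction held for Cxcl5, with -1.53 and 0.26, Gfra1, with -1.59 and 0.36, and Saa3, with -0.20 and 1.87, although in Cd34-high cells Saa3 ran from -1.06 to 0.72 over the settings. The haemoglobin genes, which are close copies of each other, had -2.33 and 3.13 for Hbb-bs, -2.36 and 3.57 for Hba-a1, and -2.55 and 1.98 for Hbb-bt, and in Cd34-high cells most of their control UMIs lay in 5 cells. Under other settings their values in Cd34-high cells reached -0.0052 for Hbb-bs, 0.31 for Hba-a1 and 0.11 for Hbb-bt. Hba-a1 and Hbb-bt thus did not keep their sign there, while Hbb-bs stayed below 0 but came close to it.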

How the results depend on the processing

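No paired analysis was possible because each condition has 1 library, and for the same reason no library could be left out. Under 8 alternatives the ratio of the share of Cd34-high cells stayed below 1 in the library and above 1 in mesenchymal cells. It was 0.72 in the library and 1.64 in mesenchymal cells with Cd34 at 0.04% or more, and 0.74 in the library with limits set on thinned cells. The counts of genes with a log2 ratio of 1 or more and of -1 or less, 113 and 97, were 278 and 224 with at least 50 UMIs per gene, 202 and 154 with cells thinned before summing, and 71 higher with at least 500 UMIs. The median of the type I interferon list ran from 1.08 to 1.28 over 13 alternatives. Of 199 named genes, 152 kept 1 sign throughout, and of 67 past 1 in size 46 remained so.

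Of the 38 lists 25 kept 1 sign. The median of the dividing cell list ran from -0.40 to 0.49, skull stem and progenitor from -0.10 to 0.12, hedgehog from -0.039 to 0.26, Wnt from -0.033 to 0.083, complement from -0.12 to 0.085, macrophage from -0.30 to 0.052, endothelial from -0.50 to 0.29, lymphocyte from -0.37 to 0.27, early blood progenitor from -1.46 to 0.98, osteoblast from -0.0011 to 0.32, interferon receptor from -0.0019 to 0.087, and matrix protease from -0.092 to 0.039. Among abundant genes, Saa3 ran from -1.06 to 0.72, Klf4 from -0.15 to 0.057, Sfrp2 from -0.15 to 0.17 and Itgbl1 from -0.21 to 0.23. The median of the erythroid list was 0.078 without the highest Scrublet scores, 0.21 with Cd34 at 0.04% or more and 0.12 with limits on thinned cells. Hba-a1 was at 0.12, 0.31 and 0.26 in the same order and 0.13 with Cd34 at 0.01% or more. Hbb-bt was at 0.034 without the highest Scrublet scores and 0.11 with Cd34 at 0.04% or more. Mpo was at -0.72 with Cd34 at 0.01% or more and -0.84 with limits on thinned cells. Ccnb1 was at -0.013 with Cd34 at 0.04% or more, Tnfrsf19 at 0.16 with limits on thinned cells, Etv4 at 0.089 with cells thinned before summing, and Matn4 at -0.33 without the top 5 cells of the gene. The cause was not tested.

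Depth limits genes below about 50 UMIs, and no value here carries the spread between animals.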
